A study of Mus musculus with 6 samples.

Results

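Liver transcripts of mice given nobiletin were compared with those of mice given vehicle, both on a high-fat diet, in the early dark phase at zeitgeber time (ZT) 14, which is 2 h after lights off. The comparison took 2 of the 6 arrays of the study, the NOB array and the HFD array of ZT14, and 8272 genes had a probe detected on at least 1 of them. All mice were C57BL/6J, 18 weeks old and fed ad libitum under equal light and dark phases, and the sources used here do not give their sex. The NOB group received 200 mg/kg of nobiletin by mouth every other day for 10 weeks on the high-fat diet, and the HFD group received vehicle on the same diet. Chow-fed mice given vehicle (RC) and the same 3 groups at ZT2 supplied the other 4 arrays and are used here only as reference levels. Each array was hybridised with liver RNA pooled from 4 mice, so a group has 1 value per gene, 1 mouse of a pool may carry a value, and no difference has a replicate check or a test.

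Nobiletin is a polymethoxylated flavone of citrus peel and an agonist of the ROR nuclear receptors, which activate clock genes such as Arntl through the response elements that the REV-ERB repressors also bind. Mice feed mainly in the dark, and around its onset the clock, insulin and the sterol-sensing SREBP2 pathway act on lipid and sterol synthesis in the liver. On a high-fat diet the liver stores fat in droplets, and macrophages, stellate cells and interferon-responsive genes can become active. Levels are log2 normalized intensities, on which 1 unit is a 2-fold difference, and every difference is NOB minus HFD at ZT14 unless another time is named. A level belongs to 1 probe, so levels are compared between arrays and never between genes.

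The pools gave closely similar profiles outside a small set of genes. Levels on the 2 arrays had a Pearson r of 0.985 across the 8272 genes (genes do not replicate each other). The median difference was 0.01 with an SD of 0.35, and 93.2% of the genes lay within 1.5-fold. At least 2-fold lower levels in NOB were seen for 113 genes (1.37% of those measured) and at least 2-fold higher levels for 31 (0.375%). At the 1.5-fold limit, 4.27% were lower and 2.51% higher, and the gene lists below are read against these shares. The lists and their members were chosen with earlier results of these data known, so an excess over these shares may in part be set by that choice. Of the 113 lower genes, 85 were detected on both arrays, as were 25 of the 31 higher genes. For a gene detected on 1 array, the fold is a bound, the level on the bright array against the lowest level of any detected probe on the other array. With such genes at their bound, 99 were at least 2-fold lower (1.2%) and 29 higher (0.351%), and at the 1.5-fold limit 3.38% were lower and 2.07% higher. Counts for a list are of measured differences, and the count at the bound follows where it is not the same. Where a gene had several probes detected on both arrays, which held for 2351 genes, the differences of its probes spanned a median of 0.17.

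**Figure D1:**
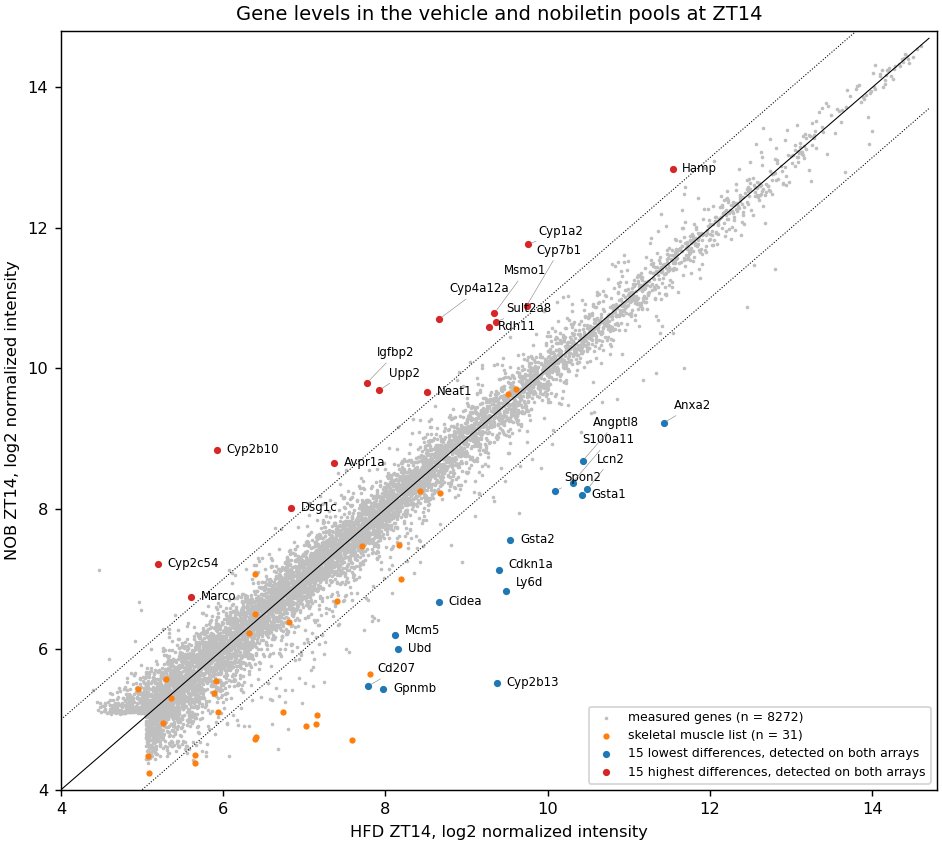
Log2 normalized intensity of each of the 8272 measured genes on the HFD ZT14 array (x axis) and on the NOB ZT14 array (y axis). The solid line marks equal levels and the dotted lines a 2-fold difference. Red and blue points are the 15 largest differences in each direction among genes detected on both arrays, from Cyp2b13 at 9.37 and 5.52 to Cyp2b10 at 5.92 and 8.83, and orange points are the 31 measured skeletal muscle genes.

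Skeletal muscle transcripts formed part of the lower side and are therefore given first. The list holds 108 genes, of which 31 were measured, 68 were detected on neither array and 9 had no named probe. Of the 31, 11 were at least 2-fold lower in NOB (background 1.37%) and 16 at least 1.5-fold lower (background 4.27%), or 9 and 12 at their bound, while 1 was at least 1.5-fold higher, Asb2 with a difference of 0.68. The list median was -0.59, or -0.44 with genes at their bound. At ZT14, skeletal alpha-actin Acta1 lay at 10.12 in RC, 7.58 in HFD and 4.71 in NOB, where it was not detected, which makes HFD at least 5.65-fold higher than NOB. The fast myosin light chain Myl1 lay at 10.21 in RC, 7.81 in HFD and 5.65 in NOB. The same order, highest in RC, was found for Atp2a1, the calcium pump of fast fibres, at 9.71, 7.15 and 4.93, undetected in NOB. Pvalb, a calcium buffer of fast fibres, lay at 9.65, 7.16 and 5.06, the last again undetected.

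The vehicle pool at ZT14 was thus not the array with the most muscle RNA, and it stood between the chow pool and the nobiletin pool. The 11 genes that were at least 2-fold lower were chosen by their gap between HFD and NOB at ZT14. That gap in their levels and detection was thus set by the choice. Over these genes, the median level at ZT14 was 8.81 in RC, 7.02 in HFD and 4.90 in NOB. At ZT2 it was 4.98 in RC, 5.10 in HFD and 4.87 in NOB. All 11 were detected in RC and HFD at ZT14, against 3 in NOB at ZT14, 4 in RC, 8 in HFD and 4 in NOB at ZT2. The summed linear intensity of all 31 genes was 9874 in RC, 5189 in HFD and 3838 in NOB at ZT14, and 3068 to 3664 on the ZT2 arrays. Among the defining markers, Acta1, Tnnc2, Pvalb and Mylpf were detected in HFD at ZT14, and Ckm and Myh4 on neither array of the comparison. Without the list, 102 genes were at least 2-fold lower and 31 higher. Whether muscle RNA bears on the other differences was not tested. In pooled bulk tissue, fewer cells of a type and less RNA per cell cannot be told apart, here or below.

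Not every gene of the list followed that order. Of its 10 brightest members in HFD at ZT14, Csrp3, Hspb6, Tpm1, Fitm1 and Tpm2 lay within 1.5-fold between the pools and were detected on all 6 arrays. Csrp3, which codes for a LIM protein of the Z-disc, was 9.61 in HFD and 9.71 in NOB at ZT14 and 9.46 to 9.62 at ZT2. The small heat shock protein gene Hspb6 was 9.51 and 9.64. The cytochrome c oxidase genes Cox8b (difference -1.19) and Cox7a1 (-0.69) and the LIM protein gene Fhl1 (-0.72) were lower in NOB.

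**Figure D2:**
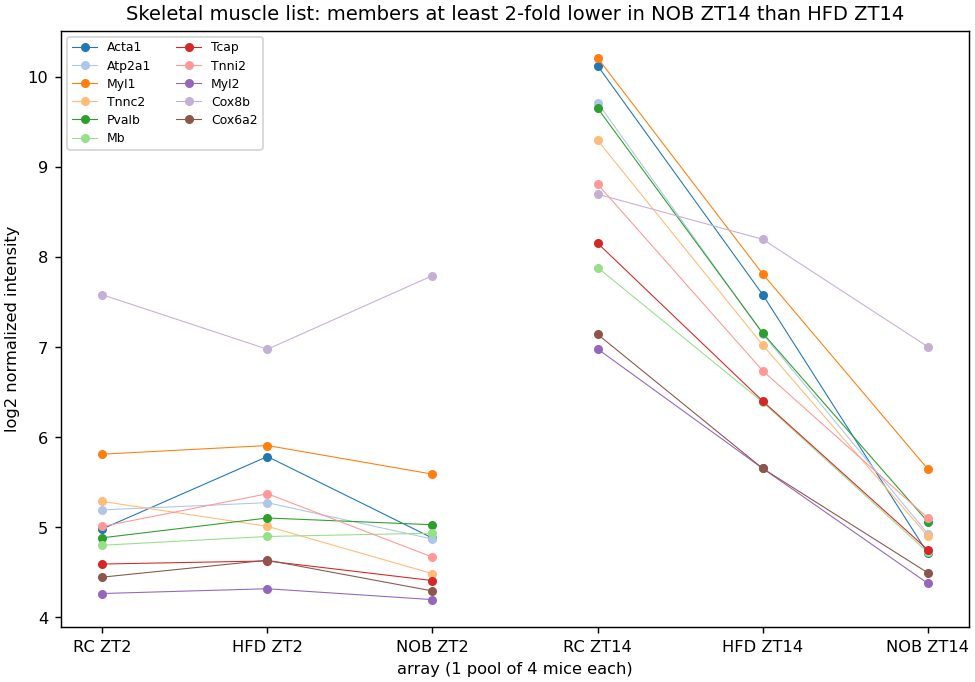
Log2 normalized intensity (y axis) of the 11 skeletal muscle genes that were at least 2-fold lower in NOB than in HFD at ZT14, on each of the 6 arrays (x axis, 1 pool of 4 mice each). Lines join the 3 arrays of a time. At ZT14 the median is 8.81 in RC, 7.02 in HFD and 4.90 in NOB, and at ZT2 it is 4.87 to 5.10 in all 3 groups. The genes were chosen by their gap between HFD and NOB at ZT14.

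Of the 42 gene lists, that of cholesterol synthesis and uptake had the most members at least 1.5-fold higher in NOB. Of its 19 measured members, 12 were at least 1.5-fold higher (background 2.51%), 3 of them at least 2-fold (background 0.375%), and 0 were lower at either limit. The list median was 0.75, against 0.01 for all genes. Msmo1, the C4-methyl sterol oxidase, lay at 9.34 in HFD and 10.78 in NOB, a difference of 1.44 (2.72-fold). Sqle, squalene epoxidase, lay at 8.53 and 9.64 (difference 1.11), with its other probe at 1.15. Lss, lanosterol synthase, which closes the sterol ring after Sqle, lay at 7.52 and 8.55 (difference 1.03). These 3 enzymes act in the stretch of the pathway between squalene and the methylated sterols.

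Genes of the other steps lay on the same side. Upstream of squalene, the farnesyl diphosphate synthase Fdps was 11.93 in HFD and 12.86 in NOB (difference 0.93), the phosphomevalonate kinase Pmvk 7.79 and 8.55 (0.76) and the isopentenyl diphosphate isomerase Idi1 5.19 and 5.79 (0.60). Downstream of lanosterol, the demethylase Cyp51 was 8.34 and 9.28 (0.94), the C14 sterol reductase Tm7sf2 7.20 and 8.18 (0.98), the dehydrogenase Nsdhl 7.44 and 8.36 (0.91), and the ketosteroid reductase Hsd17b7 9.96 and 10.82 (0.86). The sterol carrier gene Stard4 (0.75) and Sc5d (0.66) also passed 1.5-fold. The remaining 7 members did not, namely Mvk (undetected in HFD, at least 1.25-fold higher), Dhcr7 (0.53), Mvd (0.42), Srebf2 (0.41), Ebp (0.40), Insig1 (0.27) and Insig2 (-0.05). Srebf2 codes for the transcription factor of the pathway, and the Insig proteins hold that factor back in the endoplasmic reticulum.

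At ZT14 the chow pool lay above the vehicle pool for most of these genes, and since both pools are set against the same vehicle array, here and below, only levels are given side by side. Msmo1 was 10.27 in RC, between HFD (9.34) and NOB (10.78), and Sqle was 9.69 in RC, beside 9.64 in NOB. Fdps was 12.14 in RC and so below NOB at 12.86, as was Hsd17b7 at 10.18 against 10.82. The nobiletin pool thus lay near the chow level for some members and above it for others. At ZT2, where different pools were compared, the list median was 0.34, and Msmo1 differed by 0.31, Sqle by 0.34 and Lss by 0.58. Rdh11, a retinal reductase gene outside the list, had a difference of 1.32, from 9.27 to 10.59, and 0.46 at ZT2.

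**Figure D3:**
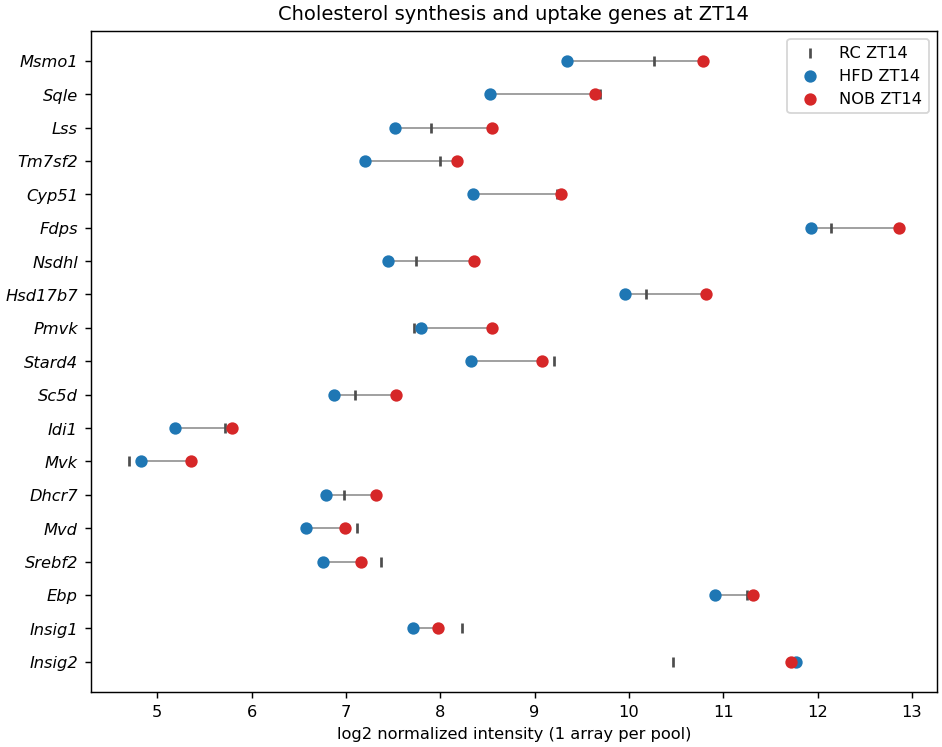
Log2 normalized intensity (x axis) of the 19 measured cholesterol synthesis and uptake genes (y axis) at ZT14, 1 array per pool. Blue points are HFD, red points NOB and dark ticks RC, and 12 of the 19 genes are at least 1.5-fold higher in NOB than in HFD, from Msmo1 at 1.44 to Idi1 at 0.60.

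The promoters of 4 of these genes are shown because the members lay on 1 side together. They were chosen after their matches were seen. Each sequence is the 150 bases before the transcript start in RefSeq's GRCm38.p6, read 5′ to 3′ on the strand of the gene, and capitals mark the CCAAT box, searched as CCAAT on both strands, so that ATTGG is the same box on the opposite strand.
Msmo1, chr8:64733579-64733728, minus strand: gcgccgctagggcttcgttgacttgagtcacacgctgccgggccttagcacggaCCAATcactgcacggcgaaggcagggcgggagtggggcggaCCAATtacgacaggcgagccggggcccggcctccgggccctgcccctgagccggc
Lss, chr10:76531455-76531604, plus strand: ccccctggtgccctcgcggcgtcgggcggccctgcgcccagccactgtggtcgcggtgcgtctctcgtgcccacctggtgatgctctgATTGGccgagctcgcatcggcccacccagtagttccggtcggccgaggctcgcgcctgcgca
Tm7sf2, chr19:6067851-6068000, minus strand: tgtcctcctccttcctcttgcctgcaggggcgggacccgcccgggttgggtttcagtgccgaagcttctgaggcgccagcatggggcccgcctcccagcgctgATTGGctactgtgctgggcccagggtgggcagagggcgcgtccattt
Nsdhl, chrX:72918371-72918520, plus strand: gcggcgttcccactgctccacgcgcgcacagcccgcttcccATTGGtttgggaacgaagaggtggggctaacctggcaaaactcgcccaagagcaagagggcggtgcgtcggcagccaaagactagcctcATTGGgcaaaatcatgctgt
The CCAAT box is the site of the trimeric factor NF-Y, which is known to act beside SREBP2 on sterol genes. Promoter entries were found for 16 of the 19 genes, with 21 promoters in all. Of these, 15 (71.4%) held the box in this window, against 24.5% of the 32851 promoters in the table. That background is not limited to genes measured here. The cell division list below, whose genes were lower in NOB, had the box in 11 of 16 promoters (68.8%), so the box does not set the cholesterol genes apart. The sterol regulatory element, searched as TCACCCCAC on both strands, was in 0 of the 21 and in 0.295% of all promoters. With a string this rare, 0 of 21 does not show that the element is absent, and no variant of the string was searched. A match describes letters only and is not evidence of binding.

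Sterol outflow and bile acid genes were also more often higher than lower. Of 18 measured members, 3 were at least 1.5-fold higher and 0 lower, and the list median was 0.31. Cyp7b1, the oxysterol hydroxylase of the alternative bile acid pathway, lay at 9.74 in HFD and 10.89 in NOB (difference 1.15), with 12.53 in RC. Abcg5 was 10.19 and 11.02 (0.83) and Abcg8 9.53 and 10.44 (0.91). The products of these last genes pair to form the transporter that exports sterols into bile. At ZT2, Abcg5 differed by -0.29 and Abcg8 by -0.22. Cyp7a1, the rate-limiting enzyme of the classic pathway, was 9.63 and 10.18 (0.55), and Cyp27a1 differed by 0.56, both within 1.5-fold.

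Cytochrome P450 genes had the largest differences in both directions. Cyp2b10, the main target of the xenobiotic receptor CAR in mouse liver, lay at 5.92 in HFD and 8.83 in NOB, a difference of 2.92 (7.54-fold), with 10.10 in RC. Its near relative Cyp2b13, a female-biased gene, lay at 9.37 in HFD and 5.52 in NOB (-3.85, 14.4-fold lower) and was undetected in RC. Cyp2b9, also female-biased, was bright in both high-fat pools, at 11.86 and 11.41, against 6.09 in RC. Members of 1 subfamily thus stood on opposite sides, and cross-hybridisation between near-identical Cyp2b and Cyp2c probes was not tested.

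Of 21 measured drug metabolism genes, 7 were at least 1.5-fold higher and 2 lower, or 1 lower at the bound, with a median of 0.34. Besides Cyp2b10, the higher members were Cyp2c54 (5.19 in HFD and 7.21 in NOB, difference 2.02), Cyp2c29 (6.72 and 7.71), Cyp2c37 (0.90), Cyp2c50 (0.89), and with them the sulfotransferase gene Sult1d1 (0.84) and Alas1 (0.63), the first enzyme of haem synthesis. Cyp2c54 lay at 8.72 in RC, and Cyp2c37 at 13.05 in RC, 12.05 in HFD and 12.95 in NOB. Cyp2c55 lay at 5.66 in HFD and was undetected in NOB, so its bound of 1.49-fold does not reach the limit. The receptors themselves, CAR (Nr1i3, -0.01) and PXR (Nr1i2, 0.31), and Cyp3a11 (-0.09), the PXR target, lay within 1.5-fold.

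Cyp1a2, a target of the aryl hydrocarbon receptor that is also expressed without a ligand around the central vein, lay at 9.76 in HFD, 11.77 in NOB and 12.10 in RC, so that NOB was 4.02-fold above HFD. The other aryl hydrocarbon receptor targets did not share this. Nqo1 differed by -0.62, and Cyp1a1, Cyp1b1, Tiparp and Ahrr were detected on neither array. Sult2a8, a hepatic sulfotransferase gene, lay at 9.36 and 10.66 (1.30), with 10.91 in RC.

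Genes that differ between the sexes in mouse liver lay on both sides. Of 17 measured male-biased genes, 3 passed 2-fold on the higher side and 2 on the lower side, and the median was 0.01. Cyp4a12a, the androgen-dependent arachidonic acid hydroxylase, lay at 8.66 in HFD and 10.70 in NOB (difference 2.04), with 11.63 in RC. Its near-copy Cyp4a12b was undetected in HFD and 6.12 in NOB, at least 2.10-fold higher, with 10.52 in RC. Serpina12 was lower, at 11.33 in HFD, 9.93 in NOB and 10.95 in RC (-1.40). Serpina1e was also lower, at 10.86 in HFD and 9.56 in NOB (-1.29), both below RC at 14.40. The major urinary protein genes Mup3 (0.01) and Mup20 (0.21) lay near 0. Of 7 measured female-biased genes, Cyp2b13 was lower, and Ntrk2 was undetected in NOB and lower by at least 1.95-fold. Among growth hormone signalling genes, 1 of 11 passed 1.5-fold, Igfbp3 at -0.62.

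Among the genes beyond 1.5-fold, glutathione transferases and other NRF2 targets, which detoxify electrophiles, were more often lower than higher. Of 20 measured members, 7 were at least 1.5-fold lower and 1 higher, and the median was -0.21. Gsta1 lay at 10.42 in HFD and 8.19 in NOB, a difference of -2.23 (4.69-fold), and all 3 of its probes were lower. Gsta2 lay at 9.54 and 7.56 (-1.98). Cbr3, a carbonyl reductase gene, lay at 7.55 and 5.97 (-1.59). In RC at ZT14 these genes were at 6.85, 7.54 and 5.51. Gstm2 (-1.08), Gstm4 (-0.77), Nqo1 (-0.62) and Gstm1 (-0.61) were also lower, and Gstt3 (0.61) was higher. Gclc (0.16), Gclm (0.19), Hmox1 (0.16), Me1 (0.41), Cbr1 (0.05) and Osgin1 (0.03), other members of the list, lay above 0 and within 1.5-fold. Probes of Gsta1 and Gsta2 may cross-hybridise, which was not tested.

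Lipid droplet genes were split. Of 19 measured, 5 were at least 1.5-fold lower, 4 of them at least 2-fold, and 1 was higher. Cidea, which codes for a droplet fusion protein, lay at 8.66 in HFD and 6.67 in NOB (-1.99). Cidec, its relative and a target of PPAR-gamma in fatty liver, lay at 8.81 and 7.49 (-1.32), and Pparg itself at 8.35 and 7.09 (-1.26). G0s2, the inhibitor of adipose triglyceride lipase, lay at 11.68 and 10.01 (-1.67). All 4 were lower in NOB than in HFD. Cidec and Pparg were lower still in RC, at 5.53 and 6.42, whereas Cidea (7.93) and G0s2 (10.88) were higher in RC than in NOB. Lpl, lipoprotein lipase, differed by -0.93, with 8.23 in NOB and 8.98 in RC.

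Perilipin genes, which code for droplet coat proteins, did not share these differences. Plin2 was 9.94 in HFD and 10.00 in NOB, against 8.29 in RC. Plin4 was 9.99 and 10.46 (0.46), against 7.05 in RC, and Plin3 differed by 0.71. At ZT2 the nobiletin pool was lower for Plin2 (-0.99) and Plin4 (-2.05), from 9.56 in HFD to 7.51 in NOB. That the differences at the 2 times differ was not tested.

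Some of these genes also mark adipocytes, and markers of that cell type were checked. Of 6 measured adipocyte markers, 3 were detected on both arrays and at least 1.5-fold lower, namely Cidea, Cidec and the uncoupling protein gene Ucp1 (6.97 in HFD, 5.23 in NOB and 7.11 in RC). Leptin, Lep, was 5.55 in HFD and undetected in NOB, a bound of only 1.38-fold. Adiponectin, Adipoq, differed by 0.23, and Retn, Plin1 and Fabp4 were detected on neither array. The summed linear intensity of the 6 genes at ZT14 was 6908 in HFD, 5319 in NOB and 3484 in RC. That sum mostly follows Car3, by far the brightest member, at 12.51 in HFD, 12.26 in NOB and 11.50 in RC (difference -0.25). The others did not share 1 order. Cidea, Cidec and Lep were highest in HFD, whereas Ucp1 and Adipoq were highest in RC, with Adipoq at 6.98 in RC, 5.85 in HFD and 6.08 in NOB. Their part in the lipid droplet result was not tested.

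Fatty acid synthesis and oxidation showed few differences. Of 18 synthesis genes, 2 were at least 1.5-fold higher, the cytosolic acetoacetyl-CoA and acetyl-CoA synthetase genes Aacs (9.96 and 10.84) and Acss2 (10.87 and 11.52), both also controlled by SREBP factors. Pnpla3, a lipase gene of the droplet, was lower (6.77 and 6.00, difference -0.77). Srebf1 (0.17), Acly (0.06), Fasn (0.20) and Scd1 (-0.37) lay within 1.5-fold. Of 28 oxidation genes, Cyp4a14 was higher (0.79) and Pdk4 lower (-0.63), and the median was -0.02. Apolipoproteins gave 0 of 14 beyond 1.5-fold, as did oxidative phosphorylation (0 of 21), ribosomal proteins (0 of 13) and proteasome subunits (0 of 18).

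Genes tied to feeding and insulin contained some of the largest single differences. Igfbp2, an insulin-like growth factor binding protein that is low in fatty liver, lay at 7.77 in HFD, 9.79 in NOB and 10.26 in RC, a difference of 2.02 (4.06-fold). Upp2, uridine phosphorylase, lay at 7.92, 9.69 and 9.95 (1.77), and its 4 probes differed by 1.73 to 1.88. In both genes the nobiletin pool lay within 1 unit of the chow pool, but both were chosen by their gap between HFD and NOB. Angptl8, which insulin and feeding induce and which inhibits lipoprotein lipase in other tissues, went the other way, at 10.43 in HFD and 8.68 in NOB (-1.75), with 11.14 in RC. Ppp1r3c and Ppp1r3g, which code for subunits that target a phosphatase to glycogen, also stood apart. Ppp1r3c lay at 10.67 and 9.51 (-1.15), whereas Ppp1r3g was undetected in HFD and 6.55 in NOB, at least 2.85-fold higher. Irs2 (0.65) and Ppargc1a (0.61) were higher, and the glucose production genes G6pc (0.04) and Pck1 (0.25) lay within 1.5-fold. In all, 5 of the 21 measured genes on the list of glucose metabolism and insulin response were at least 1.5-fold higher and 1 lower. Igfbp2 and Upp2, which are not enzymes of glucose metabolism, are counted among the 5.

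Clock genes, through which nobiletin is known to act, differed little at this time. Of 9 measured genes that are high at dusk, 1 passed 1.5-fold, Nr1d2, the REV-ERB-beta repressor, at 5.33 in HFD, 6.24 in NOB and 6.52 in RC (difference 0.90). Per2 was 8.73 and 8.99 (0.26), against 9.79 in RC, Dbp 8.44 and 8.68 (0.24), and Usp2 8.57 and 8.19 (-0.38). The list median was 0.20 at ZT14 and 0.27 at ZT2. Of the genes high at dawn, Arntl was 6.26 and 6.07 (-0.19) and Clock differed by 0.12. Rora, a receptor of nobiletin, was 7.77 and 7.58 (-0.19). Nr1d1, Per3 and Cry1 were detected on neither array. Of 18 nuclear receptor genes, Nr1d2 and Pparg passed 1.5-fold.

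Macrophage genes stood on both sides, by subset. Genes of the lipid-associated macrophage, a state that macrophages take on in fatty tissue, were lower in NOB for 9 of 11 members at the 1.5-fold limit, with a median of -0.93. At the bound, 8 were lower, with a median of -0.81, and 0 were higher. Gpnmb, a membrane glycoprotein gene, lay at 7.97 in HFD and 5.44 in NOB (-2.53, 5.78-fold) and was undetected in RC at both times. Trem2, the lipid-sensing receptor of this state, lay at 6.26 in HFD and was undetected in NOB, at least 2.26-fold lower. Lgals3, galectin-3, lay at 9.81 and 8.71 (-1.10), with 7.30 in RC, and Capg at 6.89 and 5.85 (-1.04). The cathepsin genes Ctsb (-0.09) and Ctsd (-0.05) lay near 0.

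Genes of resident Kupffer cells were instead higher for 5 of 15 measured members, with 0 lower and a median of 0.24. Marco, a scavenger receptor, lay at 5.60 in HFD and 6.74 in NOB (1.14), Cd163, the haptoglobin-haemoglobin receptor, at 6.63 and 7.72 (1.09) and Timd4, a phosphatidylserine receptor, at 5.11 and 6.00 (0.89). Vsig4 (9.19 and 10.00) and Clec4f (8.95 and 9.75), both expressed in mouse Kupffer cells, differed by 0.81 and 0.80. The general macrophage genes C1qa (-0.05), C1qb (-0.08) and Laptm5 (-0.37) lay within 1.5-fold. At ZT2 the median of this list was -0.15, with Marco at -0.58, Vsig4 at -0.10, Clec4f at 0.22, Timd4 at 0.38 and Cd163 at 1.20. Cxcl13, a chemokine that attracts B cells, was undetected in HFD, 7.12 in NOB and 5.97 in RC, at least 4.23-fold higher in NOB than in HFD.

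Antigen presentation divided by class. Of the list, 11 of 12 genes were measured, and 6 were at least 1.5-fold lower, each of them a class II pathway gene. Ciita, the class II activator, was detected on neither array. H2-Eb1 lay at 9.65 in HFD and 7.94 in NOB (-1.71), H2-Ab1 at 10.41 and 9.10 (-1.32), and the invariant chain Cd74 at 10.57 and 9.38 (-1.19). H2-DMa (-1.07), H2-DMb1 (-0.88) and H2-Aa (-0.86) completed them. In RC at ZT14, H2-Eb1 was 7.50, H2-Ab1 8.28 and Cd74 8.71. The class I genes H2-D1 (-0.04), H2-K1 (0.29) and B2m (-0.02) lay within 1.5-fold. Cd207, langerin, a receptor of some dendritic cells, lay at 7.79 in HFD and 5.48 in NOB (-2.31), and at 6.71 in RC. On the ZT2 arrays it was 6.34 to 6.69, so it was highest in the vehicle pool of ZT14, but it was named for its gap between HFD and NOB at that time. Of 3 measured lymphocyte markers, the chemokine gene Ccl5 was lower (7.26 and 6.10, -1.16). Cd3e, Cd4, Cd8a and Ms4a1 were detected on neither array.

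Interferon-responsive genes were lower for 6 of 23 members and higher for 0, with a median of -0.20. Ubd, a ubiquitin-like modifier induced by interferon-gamma and tumour necrosis factor, lay at 8.15 in HFD, 6.01 in NOB and 5.45 in RC (-2.14). The chemokine gene Cxcl9 (9.34 and 8.11, -1.23) and the guanylate-binding protein gene Gbp2 (8.27 and 7.25, -1.01) are likewise induced by interferon-gamma. Isg15 (-0.72) and Ifit3 (-0.59) were lower, while Irf7 (-0.15), Rsad2 (0.09) and Usp18 (0.31), other type I interferon genes, lay within 1.5-fold.

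Of 25 acute phase genes, 5 were at least 2-fold lower and 2 at least 1.5-fold higher, Hamp and the metallothionein gene Mt1 (12.66 and 13.42), and the median was -0.12. Lcn2, lipocalin-2, an iron-siderophore binding protein, lay at 10.49 in HFD, 8.28 in NOB and 8.63 in RC (-2.21). Saa1 lay at 12.80 and 11.41 (-1.39), Saa2 at 7.83 and 6.48 (-1.35) and Orm2 at 11.18 and 9.84 (-1.34). The other 18 genes, among them Serpina3n (-0.25), Hp (-0.10) and Crp (0.12), lay within 1.5-fold. The hepcidin genes parted. Hamp, the hormone that limits iron export, lay at 11.54 in HFD and 12.84 in NOB (1.30), and Hamp2, its near-copy, at 12.45 and 10.87 (-1.58). Whether the probes of this pair cross-hybridise was not tested. Slc40a1, ferroportin, which hepcidin binds, differed by 0.70 and the transferrin receptor Tfrc by -0.59. Of 3 measured red blood cell markers, Hba-a1 (13.66 and 12.79) and Alas2 (9.75 and 8.95) were at least 1.5-fold lower and Slc4a1 was undetected in NOB, with a summed intensity of 13881 in HFD and 7592 in NOB. Their part in the iron genes was not tested.

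Stellate cell and fibrosis genes were lower in NOB for 11 of 21 measured members at 1.5-fold, 5 of them at 2-fold, or for 9 and 4 at the bound, and higher for 0. The median was -0.77, or -0.56 with genes at their bound. Timp1, the inhibitor of matrix metalloproteinases, lay at 6.80 in HFD and was undetected in NOB and in RC, at least 3.29-fold lower in NOB. Mmp2 lay at 7.10 and 5.74 (-1.36), Sparc at 9.10 and 7.89 (-1.21), and Col1a1 at 5.79 in HFD and undetected in NOB, at least 1.63-fold lower. Acta2, the smooth muscle actin of activated stellate cells and vessel walls, lay at 7.74 and 6.27 (-1.46), with 7.90 in RC. Its dimmer probes did not agree, at -0.62 and 0.11. Sparc and Mmp2 lay at 7.86 and 5.98 in RC. The stellate cell genes Lrat (-0.06), Reln (0.17) and Dcn (-0.25) lay within 1.5-fold.

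Cell division genes were lower for 12 of 17 members at 1.5-fold (10 at the bound), 7 of them at 2-fold, and higher for 0, with a median of -0.66, or -0.60 with genes at their bound. Cdkn1a, the cell cycle inhibitor p21, lay at 9.40 in HFD, 7.13 in NOB and 7.16 in RC (-2.27), and all 3 of its probes were lower. The replicative helicase genes Mcm5 (8.12 and 6.20, -1.91) and Mcm6 (6.76 and 5.42, -1.34), the mitotic genes Cdc20 (6.77 and 5.25, -1.51) and Birc5 (6.94 and 5.60, -1.34) and the nucleotide synthesis genes Rrm1 (-1.11) and Tyms (-0.95) were lower. The other helicase genes of the list differed less. Mcm2 was at -0.59, Mcm4 at -0.38 and Mcm7 at 0.07, and Mcm3 was undetected in NOB with a bound of 1-fold. Cdk1 and the mitotic kinase gene Pbk were undetected in NOB, at least 2.13-fold and 2.86-fold lower. At ZT2 the list median was -0.17, and Mcm5 was 6.43 in HFD and 6.66 in NOB. The vehicle pool of ZT14 was the highest of the 6 arrays for Mcm5, Mcm6, Cdc20, Birc5, Rrm1 and Cdk1. These genes were picked by their gap between HFD and NOB at ZT14, so a high level on that array was in part set by the choice.

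Promoters of the helicase genes Mcm5 and Mcm6 are shown because both genes are lower and both promoters held an E2F site. That site is the binding element of the factors that drive replication genes. These promoters were chosen after the matches were seen, and those of the other helicase genes are not shown. Capitals mark TTTGGCGC, searched on both strands (GCGCCAAA on the opposite one), in the same 150-base window of GRCm38.p6.
Mcm5, chr8:75109359-75109508, plus strand: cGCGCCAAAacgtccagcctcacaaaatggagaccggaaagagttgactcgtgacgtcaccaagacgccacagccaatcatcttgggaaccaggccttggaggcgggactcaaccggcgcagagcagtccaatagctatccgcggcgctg
Mcm6, chr1:128359706-128359855, minus strand: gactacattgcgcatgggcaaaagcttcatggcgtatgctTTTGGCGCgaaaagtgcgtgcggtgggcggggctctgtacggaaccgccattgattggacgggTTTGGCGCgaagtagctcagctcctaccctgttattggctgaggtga
Promoter entries were found for 14 of the 17 genes, with 16 promoters, of which 2 (12.5%) held this site, against 0.268% of all promoters in the table. The CCAAT box, whose letters do not overlap those of the site in these promoters, was in 11 of the 16 (68.8%). Its share was 24.5% over all promoters and 71.4% for the cholesterol list.

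Further genes at the extremes belonged to none of these groups. Ly6d, a surface protein gene, lay at 9.49 in HFD and 6.83 in NOB (-2.66, 6.32-fold), was undetected in RC at ZT14, and differed by -4.20 at ZT2. Anxa2 (11.43 and 9.22, -2.21) and S100a11 (10.31 and 8.37, -1.93), which code for calcium-binding proteins, lay at 8.34 and 7.50 in RC. Spon2, a secreted matrix protein gene, lay at 10.09 and 8.26 (-1.83), and at 6.73 in RC. For these 4 genes, which were chosen by their gap between HFD and NOB, NOB lay between HFD and RC. Sdcbp2 (at least 3.0-fold), the sulfate transporter gene Slc13a4 (2.36-fold), Sprr1a (2.14-fold) and the water channel gene Aqp4 (2.05-fold) were undetected in NOB and lower by at least these folds. On the higher side were the vasopressin receptor Avpr1a (7.37 and 8.65), the desmoglein Dsg1c (6.84 and 8.01) and Neat1, a nuclear long non-coding RNA (8.52 and 9.67). Rab11fip4 (at least 1.77-fold), Tff3 (1.66-fold), the asparagine synthetase gene Asns (1.54-fold) and Kcnj8 (1.54-fold) were undetected in HFD.

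Of 12 measured hepatocyte markers, 0 differed by 1.5-fold. Most lay near the top of the scale, whose highest value was 14.60, such as Apoa1 at 14.19 and 14.23, where a difference may be compressed. Those further down were Hnf4a (10.16 and 10.25), Ass1 (12.21 and 12.53) and Serpina1a (12.21 and 12.42), while the probe named for Alb lay near background, at 5.14 in HFD and undetected in NOB. Of 13 endothelial markers, 0 passed 1.5-fold. The cholangiocyte markers Krt7, Krt19 and Epcam were detected on neither array, and Sox9 was lower (8.43 and 7.25). Of the exocrine pancreas markers, Amy2a5 (12.37 and 12.41) and Cela1 (8.69 and 8.58) were detected, and Ctrb1 and Cela2a were not. Of 13 immediate-early genes, Dusp1 was lower (-0.94), and Atf3 was undetected in NOB with a bound of 1.32-fold. Of 22 stress response genes, 4 were higher, with Chac1 (0.84) and Dnajb9 (0.63) among them, and 0 lower with Atf3 at its bound.

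**Figure D4:**
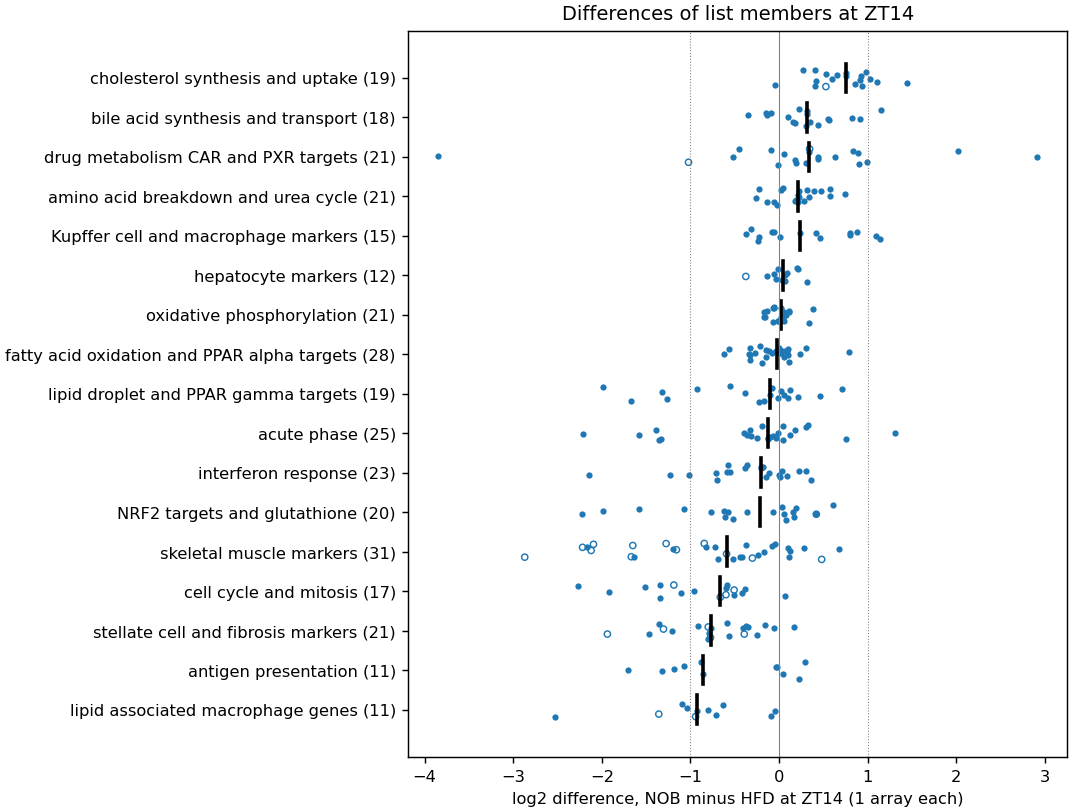
Log2 difference, NOB minus HFD at ZT14 (x axis, 1 array each), of the measured members of 17 gene lists (y axis, number measured in parentheses). Filled points were detected on both arrays, open points on 1, bars are medians and dotted lines mark 2-fold. Medians run from 0.75 for cholesterol synthesis to -0.93 for lipid-associated macrophage genes.

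The same comparison at ZT2 rests on other pools and shares no array with that of ZT14. Across the 8272 genes the differences at the 2 times had a Pearson r of 0.37, as a description across genes that are not independent, and 0.37 without the skeletal muscle list. At ZT2, 94 of these genes were at least 2-fold lower in NOB (1.14%) and 34 higher (0.411%). The genes at least 2-fold lower at both times were 36, which is 31.9% of the ZT14 list and 38.3% of the ZT2 list. The genes at least 2-fold higher at both were 7, or 22.6% and 20.6%. At the 1.5-fold limit, 56 of the 113 lower genes were also lower at ZT2 (background 4.3%) and 5 were higher (background 2.41%), and of the 31 higher genes, 12 were also higher and 5 lower. Ly6d, Gpnmb, Ubd, Lcn2, Cidea, Anxa2 and Gsta1 had differences of -1.90 or below at both times. Igfbp2 (2.02 and 1.67), Cyp1a2 (2.01 and 1.94), Cyp2c54 (2.02 and 1.80) and Upp2 (1.77 and 1.64) were higher at both.

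Other genes had the larger difference at ZT14. Cyp2b13 differed by -3.85 at ZT14 and -0.67 at ZT2, Mcm5 by -1.91 and 0.23, Angptl8 by -1.75 and 0.36, and Cd207 by -2.31 and -0.34. Cholesterol genes had a median of 0.75 at ZT14 and 0.34 at ZT2, cell division genes -0.66 and -0.17, and stellate cell genes -0.77 and -0.38. With 1 pool per group and time, a difference between the times cannot be told apart from a difference between pools, and it was not tested.

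**Figure D5:**
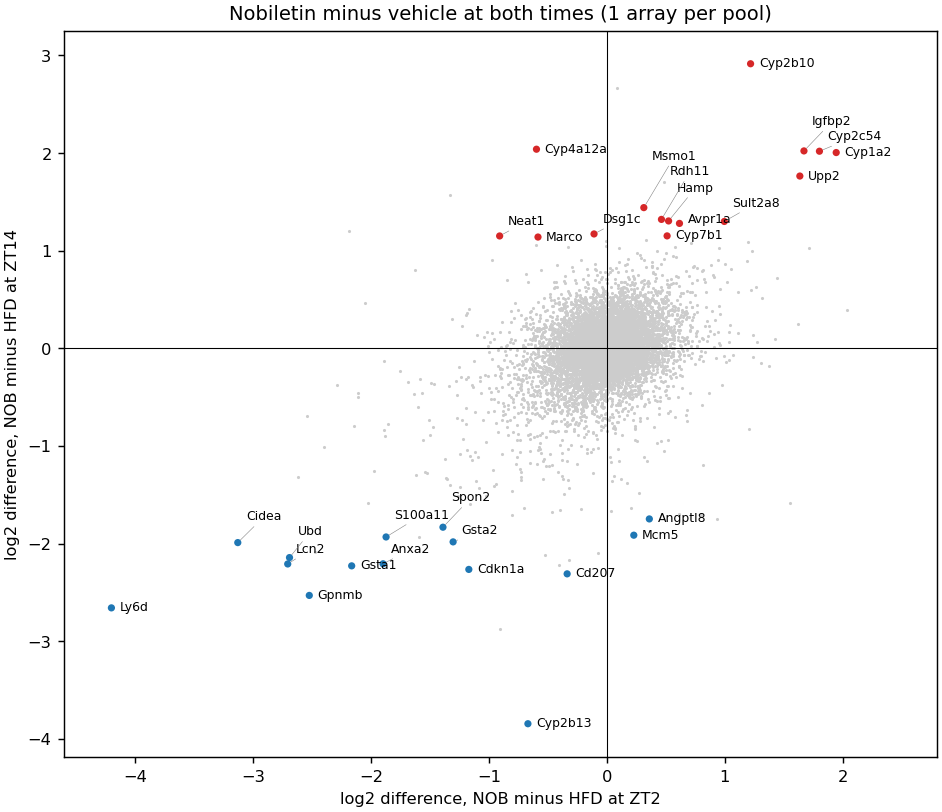
Log2 difference of NOB minus HFD at ZT2 (x axis) and at ZT14 (y axis) for the 8272 genes measured at ZT14, 1 array per pool. Named points are the 15 largest differences in each direction at ZT14 among genes detected on both arrays, such as Ly6d at -4.20 and -2.66 and Cyp2b13 at -0.67 and -3.85.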

How the data were processed

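RNA pooled from 4 livers per group was hybridised to Illumina bead arrays, 1 array per group. The deposited table gives, per the file headers, an average bead intensity and a detection p-value for each of 45281 probes. GenomeStudio is named in the submitters' processing notes; the sources used here do not give its version. The authors also deposited a matrix of processed intensity values, with a median of 3.5 on each array; from the values it is linear and background-subtracted with equal quantiles, and the amount subtracted and the centring stay unknown. Over the 11487 probes detected on every array, after log2 and removal of each probe's mean, each processed column correlated at 0.9999 or above with its own array and at 0.324 or below with any other.

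The intensities were corrected and normalized over all 6 arrays with neqc of limma 3.58.1 (R 4.3.3, offset 16), which models the background from the detection p-value, applies quantile normalization and takes log2; Python 3.11.15 with pandas 2.3.3 did the rest. Arrays have no read depth, and precision is bounded by there being 1 array per group. Of all probes, 29.0% were detected (p under 0.01) on the HFD ZT14 array and 28.5% on the NOB ZT14 array, with 12712 to 14470 probes on the 6 arrays and raw median intensities of 57.5 to 62.4. Probes detected on at least 1 of the 2 arrays were kept (13696). Names came from the platform's annotation, which gave 34885 probes 1 symbol, 18 several and 10378 none; 34807 matched the RefSeq gene table by identifier, and 0 symbols changed. The brightest probe stood for a gene, which mattered for 2674 genes. This left 8272 genes, 213 of them with clone or predicted names, which were counted and not described, and 1798 unnamed probes. The procedure was tested on simulated data.

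Genes were named by rule: the 15 largest differences in each direction among genes detected on both arrays, the 8 largest bounds in each direction among genes detected on 1, members of the 42 gene lists, and the 10 muscle genes brightest in HFD. The members and lists were chosen with earlier results of these data known. No test was made, since each group holds 1 array. The alternatives changed the background correction, normalization, offset, filter, probe rule and source of values.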

Additional observations from a re-analysis of the deposited data

Results flagged for a closer look

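In 3 genes the nobiletin pool stood at least 2-fold on opposite sides of the vehicle pool at the 2 times, and with 1 array per pool that difference was not tested. Hamp2, a hepcidin gene, had a log2 difference of -1.585 at ZT14, from 12.45 to 10.87, and 1.55 at ZT2, from 10.88 to 12.43. Cyp4a12b, an arachidonic acid hydroxylase gene, was undetected in HFD at ZT14 and higher in NOB by at least 1.072, and differed by -2.19 at ZT2, to 5.81 in NOB. Ppp1r3g, a glycogen-targeting phosphatase subunit, was likewise undetected in HFD at ZT14 and higher by at least 1.509, and differed by -1.33 at ZT2, from 6.82 to 5.49.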

How the results depend on the processing

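No paired analysis was possible because each group holds 1 array. Counts of genes at least 2-fold apart depended on how dim signals were treated. Against 31 higher and 113 lower, leaving out the background correction gave 15 and 55, and an offset of 50 gave 17 and 61. The other alternatives stayed within 1.5 times of these counts (18 values), among them the counts without the skeletal muscle list and, chosen after the data were seen, with genes detected on 1 array at their bound. With no replicates, a list median was counted as moved when it shifted by 1.5-fold or more (0.58), which 1 of 407 recomputed medians did, that of the adipocyte markers, from -1.12 to -0.2473 with no filter. In relative terms 29 medians, over 13 of the lists with a median of at least 0.2, moved by over 1.5 times, and 0 changed sign. The stellate cell list went from -0.77 to -0.41 with no background correction, the Kupffer cell list from 0.24 to 0.14 there and to 0.05 with no filter, and the skeletal muscle list from -0.59 to -0.36 with offset 50 and to -0.08 with no filter. Of 487 values of named genes, 0 changed direction, and 28 moved, each with no background correction or with offset 50. Without background correction, Cyp2b13 was -3.02, Gpnmb -1.79 and Cd207 -1.62. The folds of dim genes are therefore less certain than those of bright ones. The filter left 7613 to 19057 genes. With 1 array per pool, the spread between mice and between arrays is not measured, and differences near 1.5-fold have no error to be set against.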

Other observations

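Amino acid breakdown and urea cycle genes lay slightly above the vehicle level at ZT14, with a median difference of 0.22 over 21 measured genes, and 0.44 at ZT2. Cth, the cystathionine lyase, differed by 0.75 at ZT14 and the urea cycle entry enzyme Cps1 by 0.58. Of 25 complement and coagulation genes, C8b differed by 0.86 and C9 by -0.67, which are components of the same membrane attack complex, and the median was 0.16. Of 13 heat shock genes, 0 differed by 1.5-fold with genes detected on 1 array at their bound, which applied to Cryab, undetected in NOB (1.23-fold), and Dnaja1, undetected in HFD (1.05-fold). Among probes with no gene name, 4 passed 2-fold on the higher side in NOB and 22 on the lower side.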
